A study of Mus musculus with 20 samples.

Results

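Amino acid transporters of the kidney were followed through 10 genes taken by symbol from a table of 55822 genes: Slc6a19, Slc6a18, Slc7a9, Slc3a1, Slc7a7, Slc7a8, Slc3a2, Slc1a1, Slc7a13 and Slc6a13. All 10 were present and all 10 passed the filter on low counts. The series measured poly(A) RNA of kidney tissue from 8-week-old male C57BL/6J mice, the common inbred line, by bulk RNA sequencing. Control animals received phosphate-buffered saline (PBS), and treated animals received puberulic acid, a tropolone made by some Penicillium moulds, at 1 mg per day. Both groups, of 5 animals each, were dosed on 6 consecutive days and their organs were taken on day 7. Treatment began with larger groups, and how the sequenced animals were picked is not given here. How the doses were given is unclear: 1 label says oral, another gavage or intraperitoneal injection. Another 2 groups of 5 received a normal or a toxic lot of the supplement Choleste-Help, and they are not analysed here because the column names do not show which lot a column holds.

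Amino acids filtered at the glomerulus are almost fully recovered by the proximal tubule. Apical carriers of the brush border take them from the filtrate, and basolateral carriers pass them on to the blood. Several carriers work as pairs of a light chain, which does the transport, and a heavy chain, which brings it to the membrane: SLC3A1 (rBAT) pairs with the light chains SLC7A9 and SLC7A13, and SLC3A2 (CD98 heavy chain) with SLC7A7, SLC7A8 and several others. SLC6A19, the broad carrier of neutral amino acids, and its relative SLC6A18 need collectrin, encoded by Cltrn, to reach the brush border. Loss of single carriers in humans causes aminoacidurias, among them Hartnup disorder (SLC6A19), cystinuria (SLC3A1 or SLC7A9) and lysinuric protein intolerance (SLC7A7).

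Upstream sequence is shown for the heavy chains on which the results below turn: Slc3a1, the apical one, whose transcript fell, and Slc3a2, the basolateral one, which was not called. The letters are the 250 bases before the annotated start, from RefSeq (GRCm38.p6), 5′ to 3′ on the strand of the gene. RefSeq promoters were found for 8 of the 10 genes, with 15 annotated starts in all; Slc6a18 and Slc7a13 had no entry. Both strands were searched for the core of the HNF4 site CAAAGTCCA and the C/EBP-ATF element TGATGNAA, to which ATF4 is known to bind. Capitals mark the matches.
Slc3a1, chr17:85028097-85028346, plus strand: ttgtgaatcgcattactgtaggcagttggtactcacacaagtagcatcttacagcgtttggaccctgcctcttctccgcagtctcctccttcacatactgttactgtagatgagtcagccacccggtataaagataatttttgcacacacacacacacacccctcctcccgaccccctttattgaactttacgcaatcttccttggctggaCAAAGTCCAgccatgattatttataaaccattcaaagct
Slc3a2, chr19:8713898-8714147, minus strand: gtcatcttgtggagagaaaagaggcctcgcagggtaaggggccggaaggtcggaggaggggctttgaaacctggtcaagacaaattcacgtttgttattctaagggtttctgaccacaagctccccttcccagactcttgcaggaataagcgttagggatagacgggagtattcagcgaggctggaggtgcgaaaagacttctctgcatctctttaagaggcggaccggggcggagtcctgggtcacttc
The HNF4 core lay 39 bases before the start of Slc3a1, and 0.384% of 32851 promoter windows of the same length held it. Neither motif was found in the Slc3a2 window. Elsewhere among the 15 starts, the C/EBP-ATF element, present in 3.45% of windows, was found at 2 starts of Slc7a7. A match is a string of letters and was not tested for binding.

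Transcripts of the kidney's own amino acid carriers were lower after puberulic acid. Of the 10 genes, 9 were called lower (adjusted p under 0.05, quasi-likelihood test of edgeR, Benjamini-Hochberg over the 16266 genes tested), and Slc3a2 was not called. The background was high: 31.1% of all genes tested were called lower, 34.2% higher and 65.3% in either direction. At least 2-fold lower were 7 of the 10 genes, and 13.6% of all genes tested. For 8 of the 10 every treated animal lay below every control, against 24.0% of all genes tested (50.1% without overlap in either direction). The median log2 fold change was -2.13 over the 10 genes and 0.05 over all genes tested. Levels are in CPM, the counts of a gene relative to the library size, with libraries scaled by the trimmed mean of M-values (TMM), and the largest fall was that of Slc7a13, to 8.73% of its control mean. Of all calls 52.4% were higher. Scaling to library totals moved this share to 78.4% and the median of all genes to 0.56, and left 8 of the 10 genes called lower, without Slc7a8.

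**Figure D1:**
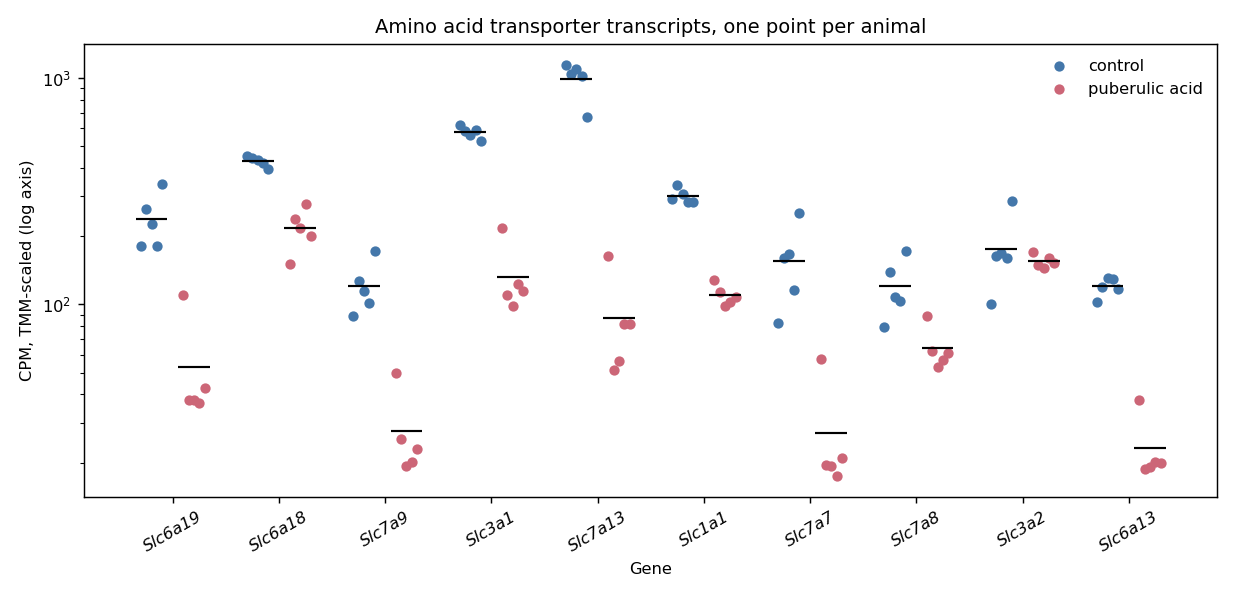
Level of each transporter gene in CPM on a log axis, with points for replicates 1 to 5 from left to right in each group and bars for the group means. The groups separate for every gene except Slc7a8 and Slc3a2, and Slc3a2 means are 176.5 CPM (controls) and 155.5 CPM (treated).

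In bulk kidney, fewer proximal tubule cells and less of a transcript per cell cannot be told apart. A list of 18 proximal tubule markers without any amino acid carrier, headed by the endocytic receptor genes Lrp2 and Cubn, had all 18 genes called lower, with a median log2 fold change of -3.19. Their summed level was 47110 to 62640 CPM in controls and 6670 to 9670 CPM in treated animals. Kap alone had means of 28710 CPM in controls and 5151 CPM in treated animals. The 8 injury markers, Havcr1 among them, were all called higher, with sums of 764.9 to 1379 CPM and of 14560 to 24760 CPM. Spp1 alone had means of 673.7 CPM in controls and 15000 CPM in treated animals. Of the other cell types, 6 of 7 fibroblast and pericyte markers and 5 of 8 tested leukocyte markers were higher, and 6 of 8 loop and distal tubule, 7 of 9 collecting duct, 2 of 7 endothelial and 1 of 6 podocyte markers were lower, the last 2 shares below the 31.1% of all genes tested. With libraries scaled to totals, 3 loop and distal tubule, 4 collecting duct, 0 endothelial and 0 podocyte markers were called lower. Called higher under that scaling were 2 loop and distal tubule, 1 collecting duct, 2 podocyte, 7 fibroblast and pericyte and 7 leukocyte markers. Summed levels went from 144.6 to 226.8 CPM in controls to 656.3 to 2462 CPM in treated animals for fibroblasts and pericytes, and from 78.72 to 176.4 CPM to 166.9 to 523.4 CPM for leukocytes. No marker on these lists had a group mean of 0. The part of these shifts in the carrier results was not tested.

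Both neutral amino acid carriers of the brush border fell. Slc6a19 (ENSMUSG00000021565, chromosome 13) was at 181.6, 263.7, 227.6, 181.0 and 339.4 CPM in control replicates 1 to 5. After puberulic acid it was at 109.6 CPM in replicate 1 and at 38.0, 37.7, 36.6 and 42.8 CPM in replicates 2 to 5. All treated animals lay below all controls, with replicate 1 well above the other 4. The means were 238.7 ± 66.1 and 53.0 ± 31.8 CPM (SD, n = 5 per group), a log2 change of -2.17 ± 0.33 (SE, adjusted p = 0.000101). Slc6a18 (ENSMUSG00000021612), the next protein-coding gene on the same chromosome, encodes a carrier with a preference for glycine and alanine. It was at 453.4, 445.3, 435.1, 423.7 and 394.9 CPM in controls, the smallest ratio of highest to lowest control among the 10 genes (1.15), and at 151.4, 239.6, 216.9, 278.3 and 200.7 CPM in treated animals. The groups were again apart, but here replicate 1 was the lowest treated animal. The log2 change was -0.99 ± 0.14 (SE, adjusted p = 5.89e-05), to 50.5% of the control mean, against 22.2% for Slc6a19.

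Whether these neighbours changed unequally was tested on their ratio within each library, which does not depend on scaling. This and 7 further ratios were put to a two-sided exact permutation test over every assignment of 5 animals against 5. The smallest p it can give is 0.00794, and adjustment was over the 8 ratios. Slc6a18 counts were 1.16 to 2.50 times Slc6a19 counts in controls, 4.69 to 7.60 times in treated replicates 2 to 5 and 1.38 times in treated replicate 1. The mean log2 ratio was 1.27 higher with puberulic acid (exact permutation p = 0.0397, adjusted p = 0.0529), short of the threshold with groups that overlapped through replicate 1. Without that animal the difference was 1.69 (exact permutation, adjusted p = 0.0127).

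Collectrin fell alongside Slc6a19. Cltrn went from 1339 ± 83.3 to 302.0 ± 82.8 CPM (SD, n = 5 per group), a log2 change of -2.15 ± 0.16 (SE, adjusted p = 3.81e-07). The log2 ratio of Slc6a19 to Cltrn was -2.53 ± 0.31 in controls and -2.63 ± 0.36 after puberulic acid (SD, n = 5 per group). The difference of -0.10 lay within the spread of the animals (exact permutation, adjusted p = 0.735). Pdzk1, a scaffold of brush border carriers, changed by -2.61 ± 0.19 (SE, adjusted p = 3.37e-07). Hnf4a, a transcription factor of proximal tubule identity, changed by -2.05 ± 0.14 (SE, adjusted p = 2.47e-07). These 3 genes kept a lower call in all 17 alternative fits.

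The cystine and dibasic amino acid exchanger fell as a pair. Its heavy chain Slc3a1 (ENSMUSG00000024131, chromosome 17) was at 618.3, 582.9, 560.0, 591.2 and 528.4 CPM in controls and at 217.4, 110.4, 98.0, 122.6 and 115.0 CPM with puberulic acid. Its light chain Slc7a9 (ENSMUSG00000030492, chromosome 7) was at 88.7, 126.3, 114.4, 101.4 and 172.2 CPM in controls and at 49.9, 25.3, 19.2, 20.1 and 22.9 CPM with puberulic acid. For both genes every treated animal was below every control and treated replicate 1 was the highest of its group. The log2 changes were -2.12 ± 0.20 for Slc3a1 (SE, adjusted p = 2.12e-06) and -2.13 ± 0.27 for Slc7a9 (SE, adjusted p = 2.91e-05). The count ratio of heavy to light chain was 3.07 to 6.97 in controls and 4.35 to 6.10 in treated animals. Its mean log2 difference of 0.01 was far inside the control SD of 0.44 (exact permutation, adjusted p = 0.944).

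Slc7a13 (ENSMUSG00000041052, chromosome 4), a carrier of acidic amino acids and cystine that pairs with SLC3A1 in the late proximal tubule, fell further than its heavy chain. Control values were 1148, 1041, 1092, 1022 and 671 CPM, and treated values were 163.2, 51.5, 56.0, 81.9 and 81.8 CPM. Control replicate 5 stood low and treated replicate 1 high, and the groups remained several-fold apart. The log2 change was -3.52 ± 0.31 (SE, adjusted p = 1.50e-06), an 11.4-fold lower level. Slc3a1 counts were 0.513 to 0.787 times Slc7a13 counts in controls and 1.33 to 2.14 times in treated animals, so the order of the heavy chain and this light chain turned over in every treated library. The mean log2 ratio was 1.44 higher (exact permutation p = 0.00794, the smallest possible, adjusted p = 0.0159). Slc7a12, a related gene, was among the carriers that rose, and how reads shared by related copies were divided is not given in the sources used here.

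Slc1a1 (ENSMUSG00000024935, chromosome 19) encodes the apical carrier of glutamate and aspartate, and Slc6a13 (ENSMUSG00000030108, chromosome 6) a basolateral carrier of GABA and taurine. Slc1a1 was at 283.1 to 336.8 CPM in controls and at 98.8 to 128.2 CPM in treated animals. It had the smallest standard error of the 10 genes, with a log2 change of -1.45 ± 0.09 (SE, adjusted p = 1.26e-07). Slc6a13 was at 102.4 to 131.2 CPM in controls, and at 37.7 CPM in treated replicate 1 against 18.7 to 20.1 CPM in the other 4. Its log2 fold change was -2.38 ± 0.19 (SE, adjusted p = 7.76e-07). Neither gene had a treated animal inside the control range.

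Among the basolateral carriers, transcripts of the light chains Slc7a7 and Slc7a8 were called lower, and that of their heavy chain was not called. Slc7a7 (ENSMUSG00000000958, chromosome 14), the light chain of the exporter of dibasic amino acids, was at 83.0, 160.7, 166.2, 116.3 and 254.7 CPM in controls, the largest ratio of highest to lowest control among the 10 genes (3.07). It was at 57.6, 19.6, 19.4, 17.4 and 20.9 CPM with puberulic acid, a log2 change of -2.53 ± 0.39 (SE, adjusted p = 0.000115). All treated animals were below all controls even so. Slc7a8 (ENSMUSG00000022180), a light chain for neutral amino acids on the same chromosome, was at 79.7, 138.7, 108.0, 103.4 and 172.4 CPM in controls and at 88.8, 62.4, 52.7, 56.6 and 60.7 CPM with puberulic acid. Treated replicate 1 lay inside the control range and the other 4 below it. The log2 fold change of -0.91 ± 0.20 passed the threshold (SE, adjusted p = 0.00187) but not with libraries scaled to totals (-0.40, adjusted p = 0.0929).

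Slc3a2 (ENSMUSG00000010095, chromosome 19), the heavy chain of both, was at 100.9, 164.3, 168.5, 161.1 and 287.5 CPM in controls and at 170.5, 149.3, 144.2, 161.1 and 152.3 CPM with puberulic acid. The treated values all lay inside the wide control range, between its low replicate 1 and its high replicate 5. The log2 change was -0.18 ± 0.21 (SE, adjusted p = 0.464), and it turned to 0.32 with libraries scaled to totals (adjusted p = 0.186) and to 0.05 without control replicate 5 (adjusted p = 0.762). Over the 17 alternative fits its adjusted p ran from 0.091 to 0.762, so the direction of Slc3a2 was not resolved. Relative to Slc7a7 and to Slc7a8, Slc3a2 was higher in every treated library than in every control. Slc3a2 counts were 1.01 to 1.38 times Slc7a7 counts in controls, 2.96 times in treated replicate 1 and 7.28 to 9.22 times in treated replicates 2 to 5. For Slc7a8 the ratios were 1.18 to 1.67 in controls and 1.92 to 2.84 in treated animals. The mean log2 differences were 2.50 and 0.78, and the ratio of Slc3a2 to the apical heavy chain Slc3a1 was 2.07 higher (exact permutation p = 0.00794 for each of the 3, adjusted p = 0.0159). In bulk kidney these ratios do not show whether the paired transcripts came from the same cells, which was not tested. Slc7a7 against the apical light chain Slc7a9 differed by -0.41, short of the threshold (exact permutation p = 0.0397, adjusted p = 0.0529). It passed without control replicate 1 (-0.51, exact permutation, adjusted p = 0.0381) and without treated replicate 1 (-0.48, exact permutation, adjusted p = 0.0423).

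**Figure D2:**
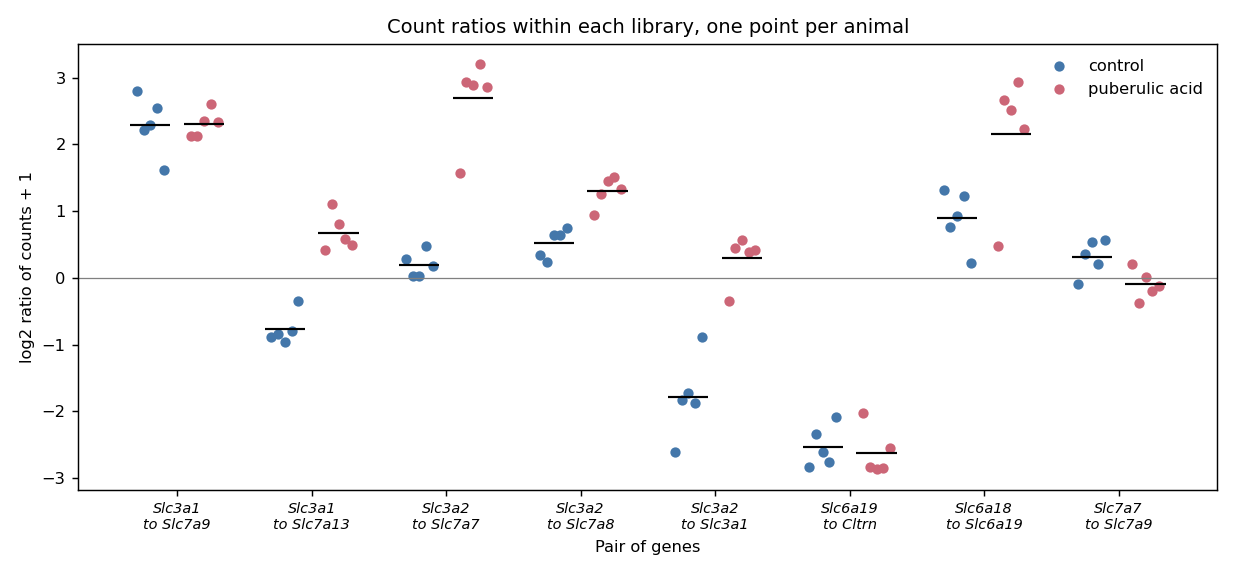
Log2 ratio of estimated counts within each library for 8 pairs of genes, with points for replicates 1 to 5 from left to right in each group and bars for the group means. The ratio of Slc3a1 to Slc7a9 stayed near 2.3 in both groups, whereas that of Slc3a2 to Slc7a7 went from a mean of 0.20 to 2.69.

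SLC3A2 also serves light chains that are not typical of the proximal tubule: SLC7A5, SLC7A6 and SLC7A10, and SLC7A11, the cystine and glutamate exchanger. Slc7a5 rose from 2.86 ± 0.49 to 21.7 ± 2.56 CPM (SD, n = 5 per group), a log2 change of 2.92 ± 0.15 (SE, adjusted p = 2.32e-08). Slc7a6 changed by 2.05 ± 0.14 on the log2 scale (SE, adjusted p = 2.08e-07) and Slc7a11 by 3.19 ± 0.54 (SE, adjusted p = 0.000247), while Slc7a10 was too low to be tested. Slc7a11 was low, at 0.42 ± 0.37 CPM in controls and 3.81 ± 0.95 CPM in treated animals (SD, n = 5 per group). Its control libraries held 0 to 13 counts, so the size of its fold change is uncertain. Divided by exon length, Slc7a7 and Slc7a8 made up 96.9% to 98.4% of the summed level of these 6 light chains in controls and 63.9% to 81.9% in treated animals, with no overlap and the highest treated value in replicate 1. The summed level itself was 52.7 to 141 CPM per kilobase in controls and 31.7 to 53.3 CPM per kilobase in treated animals. The Slc3a2 level ran from 33.4 to 95.1 CPM per kilobase in controls and from 47.7 to 56.4 in treated animals.

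Among 34 other amino acid carriers of the plasma membrane, 26 were tested, 12 were called higher, 9 lower and 5 were not called. The shares over all genes tested were 34.2% higher and 31.1% lower. The median log2 fold change of the 26 carriers was 0.38. At least 2-fold higher were 8 of the 26, against 18.7% of all genes tested, and at least 2-fold lower were 2, against 13.6%. With libraries scaled to totals, 14 were called higher and 2 lower. Besides the 3 CD98 light chains, the 8 were the cationic amino acid carriers Slc7a1 (log2 fold change 2.37 ± 0.11, SE) and Slc7a2 (1.66 ± 0.35, SE), the sodium-coupled glutamine carriers Slc38a1 (1.82 ± 0.15, SE) and Slc38a2 (1.06 ± 0.13, SE), and Slc7a12 (1.72 ± 0.50, SE). Their adjusted p-values by edgeR were 1.44e-08, 0.00135, 8.21e-07, 1.72e-05 and 0.00885. Slc38a2 reached the highest level of the 8, from 63.8 ± 13.7 to 133.1 ± 6.58 CPM (SD, n = 5 per group). All 8 stayed called higher in the 17 alternative fits, and Slc7a12 was at 2.31 without control replicate 5.

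The 2 other carriers with a fall of at least 2-fold were Slc6a20b and Slc43a2. Slc6a20b went from 262.8 ± 33.9 to 15.8 ± 8.47 CPM (SD, n = 5 per group). Its log2 fold change of -4.06 ± 0.30 (SE, adjusted p = 3.52e-07) lay beyond that of each of the 10 genes. Its close copy Slc6a20a changed by -0.67 ± 0.15 (SE, adjusted p = 0.00168), and was not called with libraries scaled to totals (-0.16, adjusted p = 0.342). Values of such copies are uncertain where reads could be shared. Slc43a2, a carrier of large neutral amino acids, changed by -1.17 ± 0.31 (SE, adjusted p = 0.00553), and by -0.67 with libraries scaled to totals (adjusted p = 0.067).

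**Figure D3:**
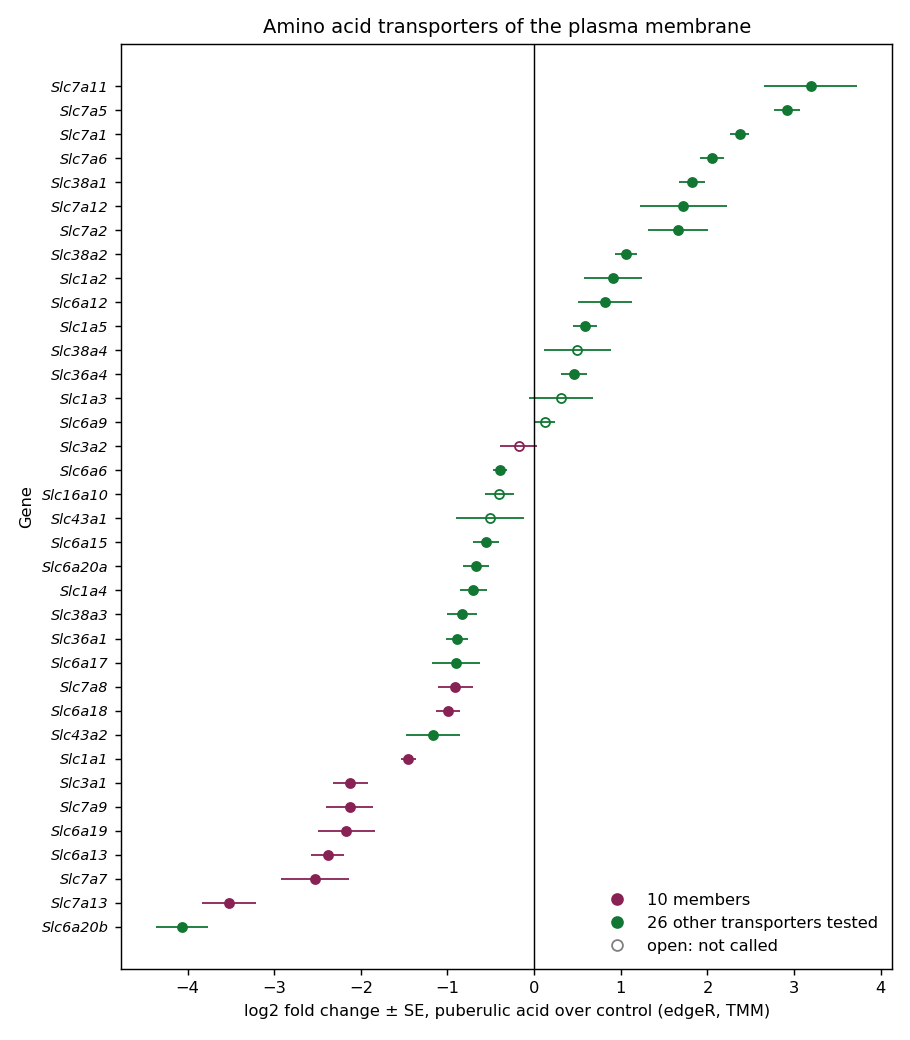
Log2 fold change ± SE from edgeR for the 10 transporter genes and the 26 other plasma membrane carriers tested, sorted by value, with open symbols for genes not called. The 10 lie between -3.52 (Slc7a13) and -0.18 (Slc3a2), and Slc7a11 at 3.19 and Slc6a20b at -4.06 mark the ends of the plot.

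Genes of related functions were counted in the same fit. ATF4 is the transcription factor of the amino acid and stress response, and several of the carriers that rose are known targets of it. Of 9 carrier genes listed as ATF4 targets, Slc3a2 among them, 8 were tested, 5 were called higher (Slc7a11, Slc7a5, Slc7a1, Slc38a2 and Slc1a5) and 1 lower (Slc1a4, -0.70 ± 0.16, SE, adjusted p = 0.00216). The fall of Slc1a4 was not called with libraries scaled to totals (-0.19, adjusted p = 0.316). Of 10 further genes of the ATF4 pathway, 9 were called higher, with a median log2 fold change of 1.61. Atf3 changed by 4.33 ± 0.27, Trib3 by 3.70 ± 0.22 and the asparagine synthetase gene Asns by 3.55 ± 0.21 (SE, adjusted p = 9.33e-08, 7.37e-08 and 7.32e-08). Sesn2 was not called (0.18, adjusted p = 0.166), but was called higher with libraries scaled to totals (0.69, adjusted p = 0.000145) and without control replicate 2 (0.26, adjusted p = 0.0259).

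Peptide recovery and amino acid breakdown in the same tubule segment were lower. Of 13 genes for peptide carriers and brush border peptidases, 11 were called lower, with a median log2 fold change of -1.96, and Slc15a1 and Mme were not called, though Mme was called lower with the replicate block (-0.33, adjusted p = 0.0135) and without treated replicate 1 (-0.51, adjusted p = 0.00541). Ggt1, which starts the breakdown of filtered glutathione, went from 1207 ± 122 to 149.8 ± 27.0 CPM (SD, n = 5 per group), and the peptide carrier Slc15a2 from 111.4 ± 10.4 to 25.5 ± 3.51 CPM (SD, n = 5 per group). Their log2 fold changes were -3.01 ± 0.13 and -2.13 ± 0.11 (SE, adjusted p = 1.20e-08 and 3.15e-08). The call of Dpp4 (-0.25, adjusted p = 0.0425) held in 8 of 17 alternative fits and turned to a higher one with libraries scaled to totals (0.26, adjusted p = 0.0365). Of 25 amino acid breakdown enzymes, 23 were tested, 21 were called lower and 1 higher, with a median log2 fold change of -1.43. With libraries scaled to totals, 15 were called lower and 2 higher. The largest fall was that of Prodh2 (-4.56 ± 0.64, SE, adjusted p = 5.82e-05), an enzyme of hydroxyproline breakdown, and it was -5.84 without treated replicate 1. Of 5 lysosomal carriers, Ctns and Slc66a1 were called lower (-0.89 ± 0.19 and -0.69 ± 0.16, SE, adjusted p = 0.00146 and 0.00302), neither of them with libraries scaled to totals (-0.38 and -0.18, adjusted p = 0.0972 and 0.36). The share called lower over all genes tested was 31.1%.

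The order of the 10 transcripts by level per exon length, in CPM per kilobase, was rearranged. In controls Slc7a13 led with 465 ± 87.6, followed by Slc3a1 with 254 ± 14.9, Slc6a18 with 97.8 ± 5.18 and Slc1a1 with 79.2 ± 5.92 (SD, n = 5 for each). These 4 ranges did not overlap each other, though those of Slc6a18 and Slc1a1 overlapped those of genes below them. The next 5, Slc6a19, Slc7a7, Slc3a2, Slc7a9 and Slc6a13, had means of 53.7 to 60.6 and overlapping ranges, and Slc7a8 was lowest with 29.5 ± 8.77 (SD, n = 5), its range overlapping those of Slc7a7 and Slc3a2. With puberulic acid the first 4 were Slc3a1 with 58.4 ± 21.2, Slc3a2 with 51.4 ± 3.44, Slc6a18 with 49.4 ± 10.7 and Slc7a13 with 40.6 ± 21.0 (SD, n = 5 for each), with overlapping ranges. Slc7a7, Slc6a13, Slc7a9 and Slc6a19 were the lowest, with means of 10.3 to 13.5. Exon lengths were those of GENCODE M21, an annotation of an older build than the one the submitters name, so these levels give an approximate order only.

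The 10 genes did not vary together among untreated animals. Control replicate 5 had the highest level of 5 of them, Slc6a19, Slc7a9, Slc7a7, Slc7a8 and Slc3a2, and the lowest level of 4 others, Slc6a18, Slc3a1, Slc1a1 and Slc7a13. The highest control was 1.87 to 3.07 times the lowest for the first 5, and 1.15 to 1.71 times for the other 4. Slc5a2, the glucose carrier gene of the early proximal tubule, was also highest in control replicate 5 and lowest in control replicate 1, at a ratio of 3.60. The early part of the proximal tubule is known for Slc6a19, Slc7a7 and Slc7a8, and the late part for Slc7a13, Slc6a18 and Slc1a1. Whether the kidneys differed in their share of these parts was not tested.

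Treated replicate 1 kept more of most carriers than the other treated animals. It had the highest level of 9 of the 10 genes in its group and the lowest of the tenth, Slc6a18. Slc6a19 was at 45.9% of the control mean in this animal and at 16.2% on average in replicates 2 to 5. For Slc7a7 the same values were 36.9% and 12.4%, for Slc7a13 16.4% and 6.82%, and for Slc6a18 35.2% and 54.3%. On the first principal component of all genes tested, which held 81.3% of the variance, replicate 1 was at 36.3 and the other treated animals at 71.0 to 81.5, with controls from -72.8 to -61.1. It also had the lowest summed injury markers (14560 CPM), fibroblast and pericyte markers (656.3 CPM) and leukocyte markers (166.9 CPM) of the treated animals, and the highest summed proximal tubule markers (9670 CPM). Without it the 9 calls stood, and no log2 fold change moved by as much as 1.5-fold. The part of these differences in the carrier levels was not tested.

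**Figure D4:**
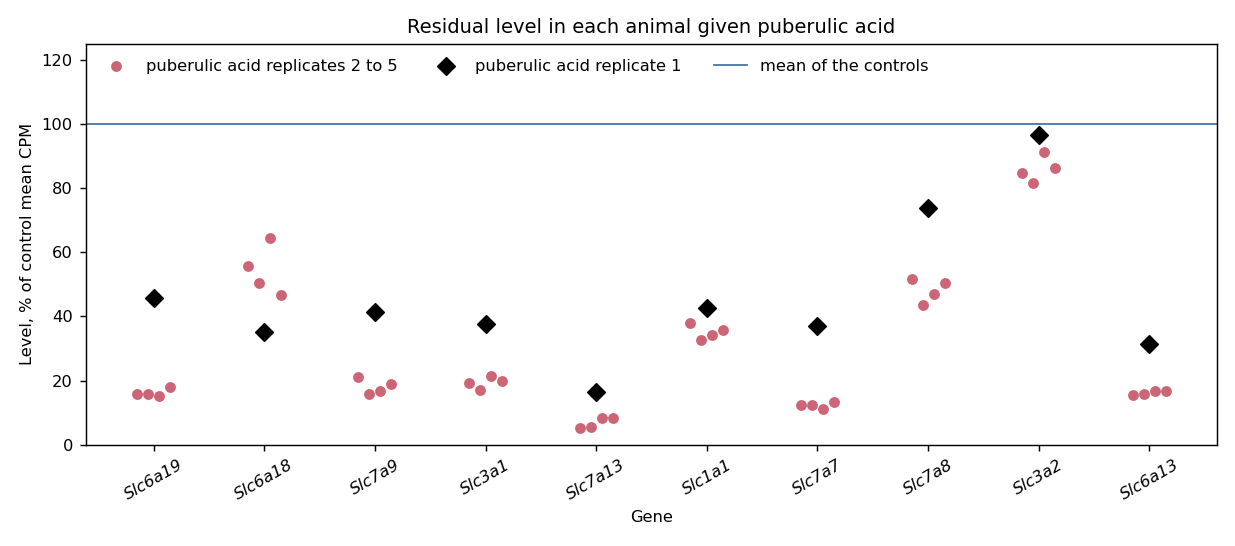
Level of each gene in the treated animals as a percentage of the control mean, on a linear axis, with a diamond for replicate 1, circles for replicates 2 to 5 from left to right and a line at the control mean. Replicate 1 lies above the other animals for every gene except Slc6a18, where it is lowest at 35.2%.

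The genes most like each carrier across the 10 samples were ranked by Pearson's r of log2(CPM + 1) among the 9468 named genes whose mean reached 10 CPM. These r describe profiles that share the difference between the groups and carry no test. Gatm (r = 0.993), an enzyme of creatine synthesis, was closest to Slc6a19, and Prodh2 (r = 0.995) to Slc7a9. Slc7a7 was followed most closely by Habp2 (r = 0.995) and by Slc5a2 (r = 0.994). Closest to Slc3a1 was Ifrd2 (r = 0.999), to Slc1a1 Agxt2 (r = 0.999), to Slc7a13 Fitm1 (r = 0.998) and to Slc6a13 Akr7a5 (r = 0.999). For Slc6a18 it was Rnf181 (r = 0.984), for Slc7a8 the creatine carrier gene Slc6a8 (r = 0.980). The closest gene to Slc3a2, Atxn7l3, reached an r of 0.902, the lowest of the 10.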

How the data were processed

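Estimated counts per gene were deposited for 20 columns; per the submitters' processing notes, Salmon 1.10.3, fastp 0.22.0, FastQC 0.12.1, MultiQC 1.28 and DESeq2 were used with build GRCm39, without roles or order. The annotation release is not given in the sources used here. Names of 10 columns match control and puberulic acid samples, and 10 further columns were not used. Genes were matched to symbols by Ensembl identifier (51344 of 55822). Totals were 18409877 to 24705587 estimated counts per sample, and a floor of 3 counts is 0.0964 to 0.195 CPM. Intervals between animals are SDs; reads carry no stated molecular identifiers. The labels number the samples within groups without stating that each is a separate animal, as taken here, so p-values measure the spread between these samples, which may be technical.

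Counts were rounded, filtered with filterByExpr, scaled by TMM and tested with edgeR 4.0.16 (glmQLFit, glmQLFTest; R 4.3.3, limma 3.58.1), after a check on simulated data. The simulated data held few changed genes, equal in each direction, and so did not check the scaling for shifts as wide as these. The SE is the absolute log2 fold change over the square root of F. Ratios used log2(count + 1). The members and lists were chosen with earlier results of these data known. Named were all members, carriers changed at least 2-fold with a mean of 1 CPM or more, partners, and up to 4 of the largest changes per other list; Slc1a4, Slc1a5, Slc6a20a, Dpp4, Mme, Slc15a1 and Sesn2 were named after their values were seen, and some genes the rule names are not reported here. Alternatives were RLE factors, library totals, 2 filters, DESeq2 1.42.0, leaving out abundant genes, a replicate block and leaving out each animal.

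Numbers run within groups of differently treated mice, and deviations of same-numbered samples from the group means correlated at -0.172 to 0.039, so the numbers were not taken as pairs.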

Additional observations from a re-analysis of the deposited data

Results flagged for a closer look

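In each set of 5 animals, the highest and lowest values of every level and ratio were compared with the next value. An animal is listed where that gap was above 0.71 of the distance from lowest to highest. This held in 12 of 36 sets. Chance alone gives about 1 in 20 for independent values, and levels of related genes are not independent.

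Treated replicate 1 accounted for 10 of the 12. It was the highest of its group for Slc6a19 (109.6 CPM), Slc7a9 (49.92 CPM), Slc3a1 (217.4 CPM), Slc7a7 (57.57 CPM), Slc7a8 (88.78 CPM), Slc7a13 (163.2 CPM) and Slc6a13 (37.67 CPM). It was the lowest for the log2 ratios of Slc3a2 to Slc7a7 (1.57), Slc3a2 to Slc3a1 (-0.35) and Slc6a18 to Slc6a19 (0.47). Control replicate 5 had the lowest Slc7a13 of the controls (671 CPM) and the highest log2 ratio of Slc3a1 to Slc7a13 (-0.34).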

How the results depend on the processing

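Of the 10 transporter genes, 8 kept their call and direction in all 17 alternative fits. Slc7a8 lost its call only with libraries scaled to totals (-0.40, adjusted p = 0.0929), and Slc3a2 was called in none of the 17. Scaling to totals called 9179 genes higher and 2526 lower, or 78.4% higher against 52.4% with TMM. Under it, 2 of the other plasma membrane carriers, 0 lysosomal carriers, 0 ATF4 target carriers, 3 loop and distal tubule, 4 collecting duct, 0 podocyte and 0 endothelial genes were called lower. Called higher were 2 lysosomal carriers, 1 gene of the peptidase list, 2 breakdown enzymes (also 2 with no filter), 2 loop and distal tubule, 1 collecting duct and 2 podocyte genes. So were 7 fibroblast and pericyte and 7 leukocyte genes. DESeq2 and the replicate block each called 1 podocyte gene higher. Leaving out 1 animal gave 0 to 1 podocyte genes in either direction, 9 to 13 other carriers higher and 9 to 10 lower. With the replicate block in place, 9 of the 10 transporter genes were still called lower. The ratios were also tested with same-numbered animals as a replicate block; 5 pairs allow no adjusted p under 0.125 here. The 4 called ratios then had unchanged differences of 1.44, 2.50, 0.78 and 2.07, each at an adjusted p of 0.125. Across the fits without 1 animal, Slc6a18 to Slc6a19 ran from 1.08 to 1.69 and Slc7a7 to Slc7a9 from -0.51 to -0.34 on the log2 scale, passing the exact permutation threshold without the animals named in the text above.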
